A study of Mus musculus with 2 samples.

Results

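The genes described here belong to the plasminogen activation system and to the start and the braking of blood coagulation: Plau, Plat, Plaur, Serpine2, F3 and Thbd. They were chosen by gene symbol in a table of read counts, and 5 of the 6 had a row among its 14694 genes. The 6th, Plaur, had none by symbol or by gene identifier (ENSMUSG00000046223). The counts come from sequencing of RNA whose labelled source is mouse lung fibroblasts, after depletion of ribosomal RNA, in a series on rosmarinic acid, radiation and lung fibrosis. The protocols describe spinning and filtering culture supernatants, and they leave unstated if cells or vesicles gave the RNA, so a level below is that of the RNA sequenced. Each group had 1 library, IR-4 or NC-4, called IR and NC here. Both labels carry the number 4, and neither the group names nor that number is spelled out, so strain, treatment, dose and time are not given in the sources used here. Each statement below compares these libraries and not conditions, and no difference has a replicate check.

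Plasminogen is a circulating zymogen that urokinase (from Plau) and tissue plasminogen activator (from Plat) cut to plasmin, the protease that dissolves fibrin and degrades matrix. Serpins restrain this step, protease nexin-1 (Serpine2) among them, and the urokinase receptor (Plaur) holds urokinase at the cell surface. Tissue factor (F3) starts coagulation by binding factor VIIa. Thrombomodulin (Thbd) binds the thrombin that follows and turns it towards activation of protein C, an anticoagulant. In lung fibrosis, fibrin deposition and weak plasmin formation are long known, and fibroblasts make several of these proteins.

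The libraries held 35219511 counted reads (IR) and 36084512 (NC). CPM below are read counts scaled to library size with TMM factors, with exact 95% Poisson intervals, and all intervals cover counting error only. Of 12 fibroblast markers 9 had a row, with a summed level of 4365 CPM in IR against 5484 in NC. Vim was higher in IR (2195 against 1820 CPM) and Fn1 lower (1417 against 2472 CPM), and these gave the most reads in IR (50.3%, Vim) and in NC (45.1%, Fn1). Of the other markers with a row, all but Dcn were lower in IR. They were Col1a1 (273 reads in IR and 688 in NC), Col1a2 (18761 and 32428), Col3a1 (565 and 690), Pdgfra, Pdgfrb and Fbln1. Thy1, Lum and Tcf21 had no row and Dcn (decorin) had 30 and 7 reads. Some defining markers of other cells were at or near 0 and others were not. The endothelial genes Pecam1 and Tek had 1 read each in IR and 0 in NC, but Cdh5 had 45 and 41, Kdr 47 and 19 and Vwf 70 and 99. The leukocyte gene Ptprc had 4 and 0 reads. The 8 macrophage markers, 5 with a row, came to 88.2 and 67.5 CPM, of which Cd68 gave 94.3% and 89.0%, and Lyz2 had 164 and 261 reads. The 6 smooth muscle and pericyte markers came to 27.1 and 22.3 CPM, and the epithelial list summed to 1.03 and 1.02 CPM with 4 of 9 markers in the table. The 7 mesothelial markers, 4 with a row, reached 99.7 CPM together in IR against 199 in NC. Msln alone gave 97.9% and 99.2% of these reads, and the part of such cells in the results was not tested. In a bulk library, fewer cells of a type and less RNA per cell cannot be told apart.

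None of the 5 genes differed 2-fold between the libraries, against 3.42% of the 10921 genes compared (374 genes: 175, or 1.60%, higher in IR and 199, or 1.82%, lower). A gene was compared when it had at least 50 reads over both libraries, which all 5 passed. It was called when the absolute log2 ratio of IR over NC was at least 1 and its counting interval excluded 0. Plat, F3 and Thbd were higher in the IR library with an interval above 0, and Serpine2 was lower with an interval below 0. Plau was read equally often in both. At this depth an interval that excludes 0 was common, found for 63.6% of all genes compared (31.2% above 0 and 32.4% below). The median log2 ratio was 0.08 over the 5 genes and -0.0069 over all genes compared.

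**Figure D1:**
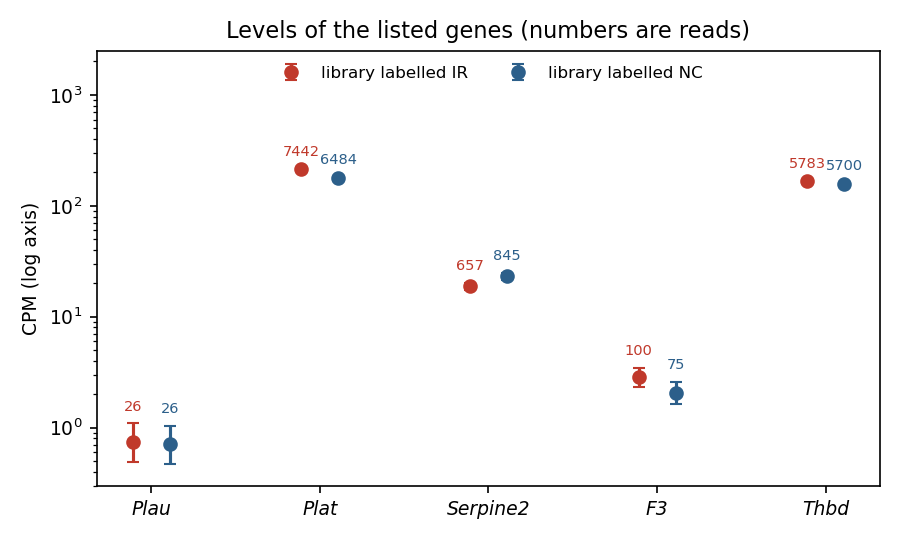
Level of each gene in the IR library (red) and the NC library (blue) in CPM on a log axis, with exact 95% Poisson intervals and the number of reads above each point. Plat and Thbd lie above 150 CPM in both libraries and Plau below 1 CPM.

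**Figure D2:**
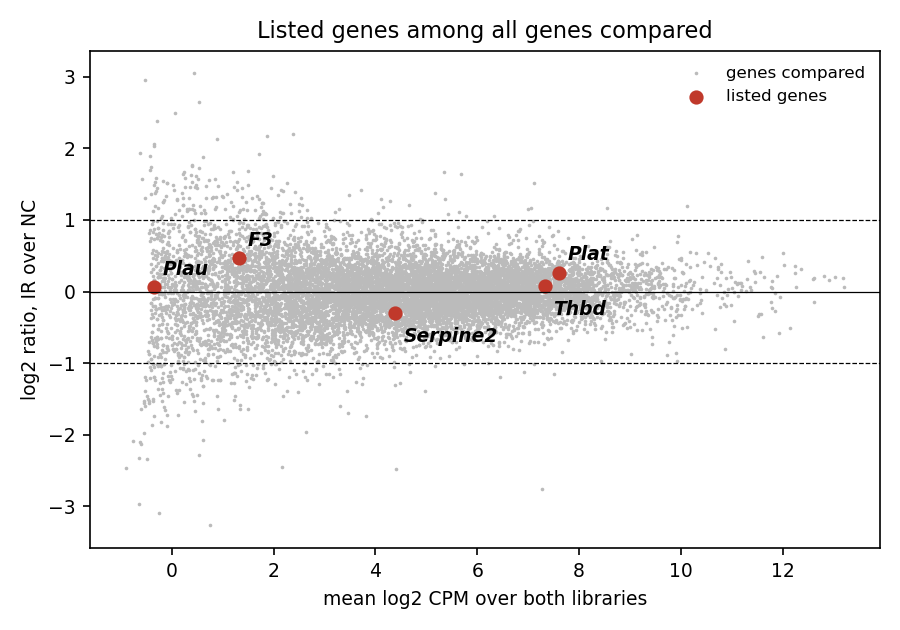
Log2 ratio of IR over NC against mean log2 CPM for the 10921 genes compared (grey) and the 5 genes with a row (red), with dashed lines at 2-fold. All 5 lie between the lines, from -0.30 for Serpine2 to 0.47 for F3.

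Tissue factor and protease nexin-1 stood at the ends of the range of ratios, and the sequence before the start of each gene is shown for that reason. Both come from RefSeq on GRCm38.p6 and hold the 250 bases before the annotated start, 5′ to 3′ on the gene's own strand. Capitals mark matches on either strand to 5 motifs: AP-1 (TGANTCA), the Sp1 GC box (GGGCGG), Egr1 (GCGNGGGCG), KLF (CCACCC) and the TATA box (TATAAA). The table of promoters held 3 of the 6 genes.
F3 (chr3:121723287-121723536, + strand): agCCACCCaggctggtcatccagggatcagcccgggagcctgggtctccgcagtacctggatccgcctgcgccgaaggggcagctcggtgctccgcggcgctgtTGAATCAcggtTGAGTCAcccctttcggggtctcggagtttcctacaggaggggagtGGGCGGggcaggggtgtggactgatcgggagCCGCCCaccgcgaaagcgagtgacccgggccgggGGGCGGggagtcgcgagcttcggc
Serpine2 (chr1:79858666-79858915, - strand): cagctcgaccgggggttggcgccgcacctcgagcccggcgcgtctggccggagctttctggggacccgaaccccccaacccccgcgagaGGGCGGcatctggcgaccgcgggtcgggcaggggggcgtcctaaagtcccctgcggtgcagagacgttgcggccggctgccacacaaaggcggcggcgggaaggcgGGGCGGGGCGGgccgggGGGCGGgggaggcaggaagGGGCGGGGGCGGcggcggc

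The F3 window held 2 AP-1 matches, TGAATCA beginning 146 bases and TGAGTCA 135 bases before the start. It also held 3 GC boxes and 1 KLF match, but no Egr1 match. AP-1 is the family of FOS and JUN dimers that growth factors and stress activate. At least 1 AP-1 match was present in 6.75% of the 32851 promoter windows of this length, and at least 2 in 0.338%. The Serpine2 window held no AP-1 match but 6 GC boxes, a number reached by 0.886% of windows, and 1 Egr1 match that overlaps a GC box. Neither window held a TATA box. Their GC contents were 70% for F3 and 78.8% for Serpine2, against a median of 52.4% over all windows. For Serpine2 the RefSeq start lies 2515 bases inside the GENCODE gene, which has further starts upstream. The matches describe letters and not sites in use.

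Of the plasminogen activators, both libraries held almost only the tissue type. Plat (ENSMUSG00000031538, chromosome 8, 22757727 to 22782844, GRCm38) had 7442 reads in IR and 6484 in NC. The IR level of 213 CPM (interval 208.5 to 218) and the NC level of 178 CPM (174 to 182) have intervals that do not overlap. The log2 ratio was 0.26 (counting interval 0.21 to 0.31), a 1.20-fold higher level in IR, and 45.0% of the genes compared had a larger absolute ratio. Plau (ENSMUSG00000021822, chromosome 14, 20836660 to 20843385) had 26 reads in each library. Its level was 0.745 CPM (0.487 to 1.09) in the IR library against 0.714 CPM (0.466 to 1.05) in the NC library. The log2 ratio of 0.06 has an interval from -0.78 to 0.90, so ratios from 0.583-fold to 1.87-fold lie within the counting error at this depth. Per kilobase of exon sequence, Plau made up 0.913% of the summed level of both activators in IR (exact binomial interval 0.598 to 1.33%) and 1.05% in NC (0.685 to 1.53%). With the longest transcript as the length the shares were 0.599% and 0.687%. Under either length the shares of the libraries do not differ beyond their counting error.

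Serpine2 was lower in the IR library. Protease nexin-1 is a cell-bound serpin that inhibits thrombin, urokinase and tissue plasminogen activator. Serpine2 (ENSMUSG00000026249, chromosome 1, 79794197 to 79861180) had 657 reads in IR and 845 in NC, or 18.8 CPM (17.4 to 20.3) against 23.2 CPM (21.7 to 24.8). The log2 ratio was -0.30 (interval -0.45 to -0.15). Serpine2 and both activators were free of exon overlap with other genes.

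The ratio of 2 genes' reads, compared between the libraries, needs neither a library scaling nor a gene length, although log2 ratios of IR over NC themselves varied with exon length, as given with Lrp1. Plat had 11.3 reads for each Serpine2 read in IR and 7.67 in NC, a 1.48-fold difference (counting interval 1.33 to 1.64). So Plat RNA was higher in IR relative to Serpine2 RNA, and the proteins were not measured. This pair and those below, unlike that of Plau with Plat, were chosen after their values were seen.

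Plaur, the anchor of urokinase on the cell surface, lies on chromosome 7 (24462484 to 24475968, GRCm38) and was not analysed here for want of a row. Genes of proteins with which its product works on the membrane were measured as RNA. Of 18 such partners and related receptors, 15 were compared. In 6 the interval lay above 0 and in 6 below, against 31.2% and 32.4% of all genes compared. None was 2-fold different, against 3.42% of all genes, and the median log2 ratio was 0.03. Cav1 (caveolin-1, a scaffold of membrane caveolae; 1583 and 1041 reads, log2 ratio 0.67), Egfr (the EGF receptor, 0.45) and Sdc4 (syndecan-4, a heparan sulfate proteoglycan, 0.33) were highest. Itgb2 (the leukocyte integrin beta2 chain, -0.54), Vldlr (a receptor that takes up serpin and protease complexes, -0.49) and Igf2r (which can bind the urokinase receptor, -0.23) were lowest. The integrin chain Itgb1 had a ratio of 0.03, with a sign that turned when libraries were scaled by total counts.

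Tissue factor was scarce in both libraries and had the highest ratio of the 5 genes. F3 (ENSMUSG00000028128, chromosome 3, 121723537 to 121735048) had 100 reads in IR and 75 in NC. The level of 2.87 CPM (2.33 to 3.49) in the IR library and that of 2.06 CPM (1.62 to 2.58) in the NC library have overlapping intervals. The log2 ratio was 0.47 with a counting interval from 0.03 to 0.93, which just clears 0. A larger absolute ratio was found for 20.7% of the genes compared. Tfpi, the inhibitor of the complex of tissue factor with factor VIIa, had 138 and 96 reads (log2 ratio 0.58, interval 0.20 to 0.98). There were 0.725 F3 reads for each Tfpi read in IR and 0.781 in NC, a 0.928-fold difference whose interval (0.612 to 1.41) includes 1.

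Thrombomodulin was abundant and nearly level between the libraries. Thbd (ENSMUSG00000074743, chromosome 2, 148404466 to 148408188) had 5783 reads in IR and 5700 in NC, or 166 CPM (162 to 170) against 156 CPM (152 to 161). The log2 ratio was 0.08 (interval 0.03 to 0.14), and 80.4% of the genes compared had a larger absolute ratio. Thbd is best known from endothelium. The 9 endothelial markers, 6 with a row, came to 50.6 CPM in IR against 52.7 in NC, of which Egfl7 gave 90.7% and 91.7%, and without it the sum was 4.70 and 4.36 CPM. Procr, the receptor that presents protein C to the complex of thrombin with thrombomodulin, had 3948 and 4594 reads (log2 ratio -0.16, interval -0.22 to -0.09). The number of Thbd reads per Procr read was 1.46 in IR and 1.24 in NC, a 1.18-fold difference (1.12 to 1.25).

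Levels of different genes were compared per kilobase. With all exon sequence as the length, the order was the same in both libraries: Thbd (44.5 CPM per kilobase in IR and 42.0 in NC), Plat (34.2 and 28.5), Serpine2 (2.27 and 2.80), F3 (1.13 and 0.815) and Plau (0.315 and 0.302). No neighbours in this order had overlapping counting intervals in either library. The order at the top depends on the length used. With the longest transcript, Plat (52.8 and 44.0) stood above Thbd (44.5 and 42.0), and Serpine2 reached 5.55 and 6.84. F3, with 1.53 and 1.10, remained between Serpine2 and Plau. Among all genes, 9.60% had a higher level per kilobase than Thbd in IR, 12.2% a higher level than Plat and 69.7% a higher level than Plau.

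**Figure D3:**
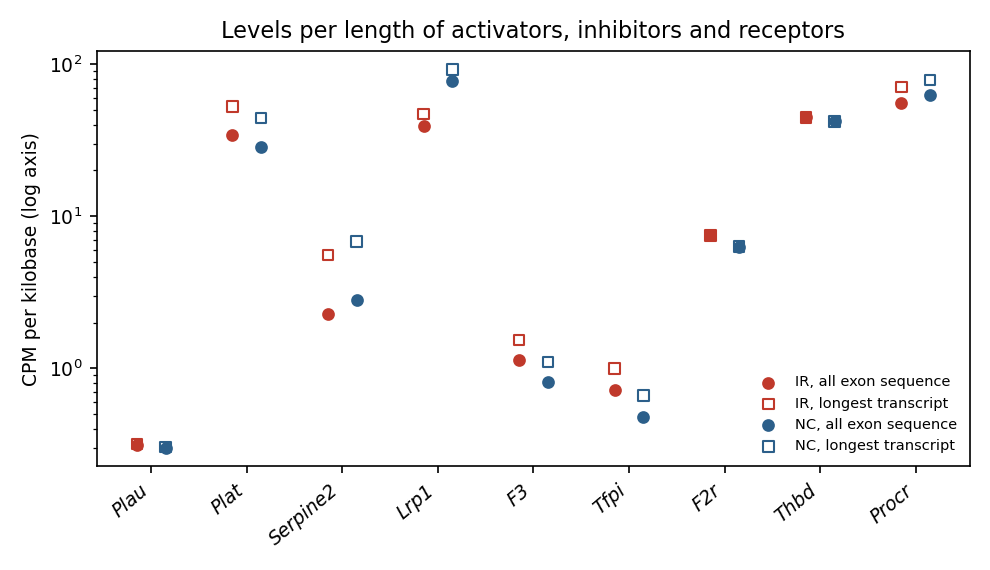
CPM per kilobase on a log axis for 9 genes of activation, inhibition, uptake and thrombin signalling, in IR (red) and NC (blue), with all exon sequence (filled circles) or the longest transcript (open squares) as the length. F3 and Tfpi lie close together, while Plau and Plat are far apart under both lengths.

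Other genes of plasminogen activation and fibrinolysis were split in direction. Of 28 listed genes 18 had a row and 12 were compared. The interval lay above 0 for 6 and below 0 for 4 (31.2% and 32.4% of all genes), and none was 2-fold different, against 3.42% of all genes. The median log2 ratio was 0.16, against the -0.0069 of all genes. With no read filter these medians were 0.013 and -0.0012. Lrp1, the endocytic receptor that clears activator and inhibitor complexes from the surface, had 24304 reads in IR and 49754 in NC. Its log2 ratio of -0.97 (interval -0.99 to -0.95) lay just inside the 2-fold limit. Lrpap1, the chaperone of Lrp1, had a ratio of -0.42, and Mrc2 (Endo180, a collagen uptake receptor that associates with the urokinase receptor) one of -0.45. In contrast Anxa2, a surface docking protein for plasminogen and tissue plasminogen activator, had 30807 and 20823 reads (0.63, interval 0.60 to 0.65), while its partner S100a10 had 7445 and 8410 reads (-0.11). Serpinb8, an intracellular serpin, had 57 and 31 reads (0.90, interval 0.29 to 1.62), and the matrix protein Thbs1 a ratio of 0.48. Plg itself had no row.

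Per Lrp1 read there were 0.306 Plat reads in IR and 0.130 in NC, a 2.35-fold difference (2.27 to 2.44) in RNA reads only. Longer genes had lower ratios in general: the median log2 ratio was 0.09 for the 10% of genes with least exon sequence and -0.06 for the 10% with most, to which Lrp1 belongs. Centred on that trend the ratio of Lrp1 was -0.90 and that of Plat 0.30.

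**Figure D4:**
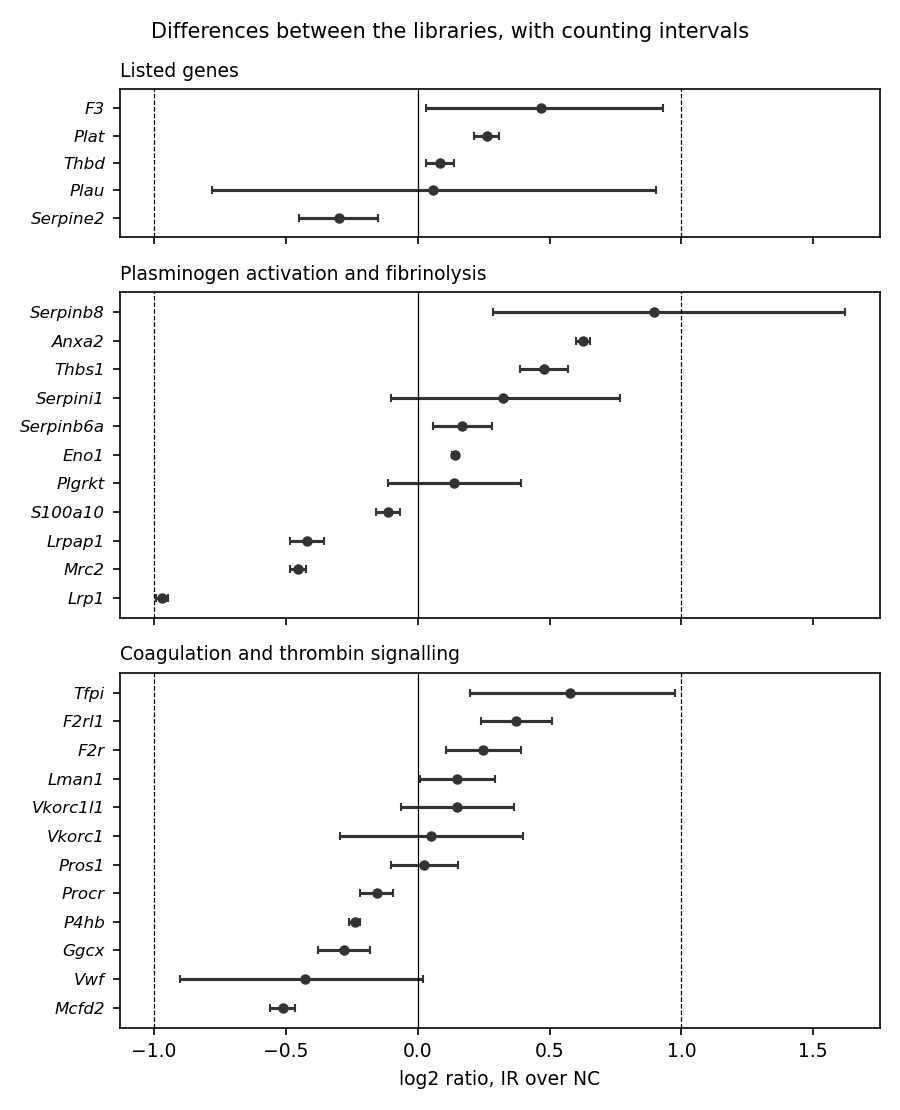
Log2 ratio of IR over NC with 95% counting intervals for the 5 genes (top), 11 of the 12 compared genes of plasminogen activation and fibrinolysis (middle) and the 12 of coagulation and thrombin signalling (bottom), with dashed lines at 2-fold. Every point lies inside the 2-fold lines, with Lrp1 at -0.97 nearest to them.

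Coagulation genes beyond tissue factor were mostly inhibitors, protease-activated receptors and processing enzymes, with few reads for clotting factors. Of 31 listed genes 21 had a row and 12 passed the read filter. F5 had 10 reads in IR and 27 in NC, F8 15 and 12, F7 and F10 1 read in IR and 0 in NC, Fga 0 and 1, and Fgg 1 and 8. F2 (prothrombin), Fgb and Proc had no row. Among the 12 compared genes the interval lay above 0 for 4 and below 0 for 4, against 31.2% and 32.4% of all genes compared. None was 2-fold different, against 3.42% of all genes, and the median log2 ratio was 0.04. After Tfpi, the highest were the protease-activated receptors F2rl1 (PAR2, which the tissue factor complex can cleave; 1020 and 822 reads, 0.37, interval 0.24 to 0.51) and F2r (PAR1, the main thrombin receptor of fibroblasts; 871 and 765 reads, 0.25, interval 0.11 to 0.39). The lowest were Mcfd2, a cargo adaptor for secretion of factors V and VIII (-0.51), Vwf (-0.43, from 70 and 99 reads with an interval that includes 0) and the vitamin K-dependent carboxylase Ggcx (-0.28).

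Among 17 compared substrates and enzymes downstream of plasmin and urokinase, 1 gene was at least 2-fold higher in IR and 1 at least 2-fold lower. Of all genes compared, 3.42% were called. The interval lay above 0 for 5 and below 0 for 7, against 31.2% and 32.4% of all genes, and the median log2 ratio was -0.06. Mmp10, a stromelysin, was read 63 times in IR and 11 times in NC (log2 ratio 2.38, interval 1.64 to 3.65). Mst1, the macrophage-stimulating protein that serine proteases activate, had 190 and 441 reads (-1.14, interval -1.41 to -0.90). Fn1 (fibronectin, -0.80) and Vegfa (-0.41) were the next lowest. Timp1, an inhibitor of matrix metalloproteinases (0.39), and Met, the receptor of hepatocyte growth factor (0.29, interval -0.0021 to 0.59), were the next highest.

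Transcription factors of families known to act on these genes were listed as well: AP-1 and ETS factors at Plau, AP-1 and Egr1 at F3, and Klf2 and Klf4 at Thbd. All 24 had a row and 23 were compared, 12 with an interval above 0 and 5 below, against 31.2% and 32.4% of all genes compared. None was 2-fold different, against 3.42% of all genes, except that Egr2 reached a log2 ratio of 1.0003 under upper-quartile scaling. The median was 0.15, against -0.0069 over all genes compared. The highest were Egr2 (305 and 161 reads, 0.98), Egr1 (17359 and 11104 reads, 0.71) and Fos (275 and 176 reads, 0.70). Klf2 was lowest (1980 and 3494 reads, -0.76, interval -0.84 to -0.68), followed by Etv5 (-0.38), for which 24.5% of the 50-base words also occur in other genes, and Egr3 (-0.35, interval -0.94 to 0.21). Klf4 had 1579 and 1670 reads (-0.02), with a sign that turned under upper-quartile scaling. Whether any of these factors bears on the values of Plau, F3 or Thbd was not tested.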

How the data were processed

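RNA from samples labelled as mouse lung fibroblasts was sequenced in 2 libraries, 1 per group. The labels' protocols describe centrifugation of culture supernatants, so whether the RNA came from cells or vesicles is not stated. Per the submitters' processing notes, cutadapt 1.9.3, HISAT2, HTSeq 0.9.1 and edgeR were used with build mm10. The annotation release and strand setting are not given in the sources used here. The authors deposited raw read counts per gene, per the file headers. A further 2 value columns were not used here.

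TMM factors from edgeR 4.0.16 (R 4.3.3) were 0.991 for IR and 1.01 for NC. Log2 ratios used a prior count of 2 and genes with at least 50 reads over both libraries. Intervals of ratios are exact binomial (Clopper-Pearson), and those of gene-to-gene ratios are exact conditional, or normal on the log scale where every count was at least 200. As a one-sided limit, a count of 0 allows up to 3 reads (0.086 CPM in IR, 0.0824 in NC). PCR duplicates are not independent molecules. With 1 library per group no test or p-value was possible.

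Gene lengths, positions and overlaps came from GENCODE vM21 (GRCm38), which held 99.3% of the gene identifiers. In simulated counts for IR over NC (10930 genes compared, counting noise only), 100% of the 3-fold and 100% of the 4-fold changes were found and 5 unchanged genes were called. The changes were placed only in genes with at least 200 reads over both libraries. Recovery at the lower depth of Plau and F3 was therefore not tested. From each of the 5 pathway lists the 3 highest and 3 lowest genes were named, any gene 2-fold different, and genes the pathway needs. Some of these are not reported here. The members and lists were chosen with earlier results of these data known. Alternatives were other scalings (total counts, DESeq2 1.42.0 size factors, upper quartile), prior counts, read filters and fold rules, thinning, centring on length, and other gene lengths.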

Additional observations from a re-analysis of the deposited data

How the results depend on the processing

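No paired analysis was possible because each group has 1 library, and for the same reason none could be left out. No alternative brought any of the 5 genes past its fold rule or turned the sign of its ratio. The log2 ratios ranged from 0.23 to 0.30 for Plat, 0.44 to 0.49 for F3, 0.06 to 0.11 for Thbd, -0.33 to -0.26 for Serpine2 and 0.02 to 0.13 for Plau. With total counts the lower bounds for F3 and Thbd came to 0.0037 and 0.0028. A filter of 200 reads leaves out Plau and F3. The 374 of 10921 genes at least 2-fold different became 1190 of 14694 with no filter and 144 of 9379 with at least 200 reads. At 1.5-fold and 4-fold they became 1419 and 24 of 10921. Of the 79 compared genes in the pathway lists, 2 were called at 2-fold, 13 at 1.5-fold and 1 at 4-fold. With upper-quartile scaling 3 of the 79 were called, Egr2 being added, against 363 of 10921. With no filter 5 of the 98 listed genes with a row were called. With at least 200 reads 1 was called, among fewer genes compared. Without length scaling, Plau made up 0.348% of both activators' reads in IR and 0.399% in NC. The levels of Plat, Serpine2 and F3 per kilobase moved with the length used, an alternative added after the data were seen. Lrp1 stayed under 2-fold in all 12 settings (-0.9986 to -0.90). Plau and F3 are limited by depth, with 52 and 175 reads over both libraries.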

Other observations

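The deposited table assigns 46 of its genes to the pathway of complement and coagulation cascades, Plau, Plat, F3 and Thbd among them. This list was looked at after the data were seen. It had 23 genes with enough reads to compare, 7 with a counting interval above 0 and 6 below, and 1 called, against 31.2%, 32.4% and 3.42% of all genes compared. These counts lie near the shares over all genes. The median log2 ratio was -0.13. Its lowest ratios belonged to complement genes. C4b, a component of the classical pathway with a near-identical copy in the mouse that makes its count uncertain, was read 21 times in IR and 115 times in NC (log2 ratio -2.29, interval -3.14 to -1.71), and was the only gene of the list at least 2-fold different. The protease gene C1ra had 1829 and 3807 reads (-0.99, interval -1.08 to -0.91), and C3, the central complement component, 24695 and 46797 reads (-0.86, interval -0.88 to -0.84). Of the coagulation genes, Tfpi (0.58), F3 (0.47), Plat (0.26) and F2r (0.25) were higher in IR.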
